A study of Homo sapiens with 12 samples.

Results

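The genes described here are 50 genes of mitosis, chosen by symbol from the count table of HepG2 cells, and all 50 were among its 16389 genes. HepG2 is a long-established line grown from a human liver cancer. Groups of 3 libraries each were compared: LG cells grown for 48 h in 5.5 mM glucose, HG cells grown for 48 h in 20 mM glucose, and LGV and HGV cells that received 1 mM valproic acid (VPA), an anticonvulsant and histone deacetylase inhibitor, for 12 h after the same media. The medium of all groups was DMEM with fetal bovine serum and antibiotics. VPA was added after the glucose exposure, and whether the untreated controls were harvested before or after those 12 h is not stated in the sources used here, so that VPA and added time in culture cannot be told apart. Everything comes from 1 line, and the study speaks of triplicates without saying whether these were separate cultures, so p-values measure only the spread between these libraries, which may be technical.

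Cells enter mitosis when CDK1 bound to cyclin B is switched on by CDC25 phosphatases, with polo-like and aurora kinases acting beside it. Kinetochores, assembled on the centromere, then hold the microtubules of the spindle, and the spindle assembly checkpoint restrains the anaphase-promoting complex until every chromosome is attached. Most genes for these proteins are transcribed late in the cell cycle, under the MuvB complex with B-MYB and FOXM1 and under NF-Y, through 2 short promoter motifs known as the CHR and the CCAAT box.

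To show the members at the level of sequence, promoter windows from RefSeq (GRCh38.p14) were searched on both strands for TTTGAA or TTTAAA, the common forms of the CHR, and for CCAAT. A window of 300 bases, 250 before and 50 after the start of transcription, was at hand for 40 of the 50 genes. TTTGAA or TTTAAA was present in 32 of the 40 (80%), against 24.3% of all 27305 promoters, and CCAAT in 28 of 40 (70%), against 35.7%. Both were present in 22 of 40 (55%), against 9.49%. Of members higher in HG against LG, TTTGAA or TTTAAA was present in 13 of 19 (68.4%), and of those not called in 19 of 21 (90.5%). A match is a description of the letters and not a binding site. The 150 bases before the start are printed for 6 genes on which the results turn: CDK1 and SPC24, with large differences between media, and CCNA2, CCNB2, PLK1 and HMMR, which were lower with VPA in at least 1 medium. Capitals mark the CHR and CCAAT letters on either strand, ATTGG being CCAAT read from the other strand and TTTAAA the same on both. In HMMR a CCAAT and an ATTGG overlap.
CDK1: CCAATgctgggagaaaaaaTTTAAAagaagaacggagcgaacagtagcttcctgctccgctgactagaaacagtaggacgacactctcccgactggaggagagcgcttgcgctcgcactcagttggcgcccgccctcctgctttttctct
CCNA2: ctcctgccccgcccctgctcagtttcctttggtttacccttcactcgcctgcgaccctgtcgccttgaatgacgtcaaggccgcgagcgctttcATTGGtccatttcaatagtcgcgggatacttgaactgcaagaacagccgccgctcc
CCNB2: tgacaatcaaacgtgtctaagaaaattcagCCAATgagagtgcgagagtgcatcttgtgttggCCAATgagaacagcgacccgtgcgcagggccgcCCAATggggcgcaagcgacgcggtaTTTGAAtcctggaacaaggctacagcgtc
PLK1: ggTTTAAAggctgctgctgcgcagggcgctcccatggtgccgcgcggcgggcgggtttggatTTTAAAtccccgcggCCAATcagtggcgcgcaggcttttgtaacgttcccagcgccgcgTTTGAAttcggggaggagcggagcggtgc
SPC24: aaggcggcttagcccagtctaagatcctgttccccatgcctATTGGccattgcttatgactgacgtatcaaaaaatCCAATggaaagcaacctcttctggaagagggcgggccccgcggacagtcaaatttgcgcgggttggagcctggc
HMMR: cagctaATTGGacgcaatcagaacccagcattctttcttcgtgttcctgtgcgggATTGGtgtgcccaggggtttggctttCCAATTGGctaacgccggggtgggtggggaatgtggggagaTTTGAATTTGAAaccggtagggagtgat

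These windows lie at chr10:60778181-60778330 on the plus strand for CDK1, chr4:121823884-121824033 on the minus strand for CCNA2 and chr15:59104996-59105145 on the plus strand for CCNB2. Those of PLK1, SPC24 and HMMR lie at chr16:23678739-23678888 (plus), chr19:11155783-11155932 (minus) and chr5:163460482-163460631 (plus). PLK1 held 3 CHR matches and 1 CCAAT in its 150 bases, HMMR 2 and 4, CCNB2 1 and 3, and CDK1 1 and 1. SPC24 held 2 CCAAT matches and CCNA2 held 1, and neither held TTTGAA or TTTAAA in the window. NDC80, MAD2L1 and CDC25B, whose values also follow, held 0 whole matches of either kind in their 150 bases, although in the 300-base window NDC80 held TTTGAA across the start and MAD2L1 held TTTGAA after it and a CCAAT further upstream. AURKA, FOXM1, BUB3, TTK, CENPH, CENPM, BIRC5, UBE2C, TPX2 and RACGAP1 were without a window.

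The counts were deep for these genes. Total counts ran from 29798442 to 45572694 per library, and the lowest count of any member in any library was 38 reads, of SPC25. The hepatocyte genes ALB and AFP reached at least 18900 and 3660 CPM (counts scaled to library size with TMM factors) in every library. Of the markers of other cells, COL1A1, CDH5, VWF and CD14 stayed at or below 4.73 CPM in all libraries, PDGFRB lay between 18.5 and 57.9 CPM, and LYZ, for which 908 to 1550 CPM were counted, was high in every group. Other markers of leukocytes, fibroblasts and endothelium are not reported here.

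Per kilobase of exon, the level in LG was highest for CDC20, at 29 CPM per kb, followed by TPX2 at 26.1, NCAPD2 at 24.7, AURKA at 24.1, PLK1 at 23.1 and CCNB1 at 22.6. It was lowest for CENPE, at 0.562 CPM per kb, and CENPK, at 0.578, with SPC24 and PLK4 at 1.05 each. Reads of some members may be shared with neighbours, since the strand setting of the counting is not given. In a later annotation of GRCh37 than that of the counts, 57.6% of the exon bases of PRC1 lie in a protein-coding gene on the same strand that has no row in the count table. On the other strand 34.3% lie in PRC1-AS1, 33.7% of those of NCAPG lie in LCORL, 19% of those of SMC4 in TRIM59, 15.9% of those of FOXM1 in ITFG2 and 11.6% of those of PLK1 in an antisense RNA, also without a row.

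The first question was whether mitotic genes differ between the media. In HG, 22 of the 50 genes were higher than in LG and 0 were lower (edgeR's quasi-likelihood test, FDR of 0.05 or less over all genes tested), where 12% of all genes tested were called higher and 12.7% lower. Of all 50, 46 had a log2 fold change above 0 (50.9% of all genes), the others being CCNB1 at -0.05, NCAPD2 at -0.14, FZR1 at 0 and ECT2 at -0.53, and the median was 0.47, against 0.01 for all genes. One gene, ECT2, was lower at an unadjusted p under 0.05 (2928 of all 15452 genes tested), and DESeq2 also called 0 lower and 24 higher. For 23 genes every HG library lay above every LG library (19.3% of all genes) and for 0 every one lay below (21.8%). The libraries are bulk RNA, in which a change in the share of cells in mitosis and a change in these RNAs per cell cannot be told apart.

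LG replicate 1 stood low for these genes. It was the lowest of its group for 42 of 50 members, against 27.2% of all genes, and its median difference from the LG mean was -0.32 log2 units, against 0.14 and 0.21 for replicates 2 and 3. Without it, 9 members rose in HG (CDK1, MAD2L1, CENPK, NDC80, NUF2, SPC24, UBE2C, HMMR and TOP2A), ECT2 fell, and the median of the 50 was 0.40, while 12.5% of all genes were called. The same 9 genes were called higher under all 15 alternatives tried for this comparison. The other 13 calls were each lost without this library (CCNA2, CCNB2, CDC25B, CDC25C, BUB1B, TTK, CENPH, SPC25, AURKB, CDCA8, PTTG1, PRC1 and SMC2). Without HG replicate 2, 15 members were called, and without HG replicate 3, 17. With library size alone in place of TMM factors the median of all genes shifted to 0.11, and 26 members rose (14.1% of all genes higher, 8.39% lower). Single libraries also stood apart for the members in other groups. HG replicate 1 was the lowest of its group for 33 of 50 (39.3% of all genes) and LGV replicate 2 for 33 (34.7%). LGV replicate 3 was lowest for 0 (25.9%) and highest for 43, and HGV replicate 3 was lowest for 3 (30.9%) and highest for 32.

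With VPA in both media the difference was seen again, in libraries not used above. In HGV against LGV, 31 of 50 genes rose and 1 fell (ECT2), where 21.2% of all genes were called higher and 19.5% lower, and 46 of 50 had a log2 fold change above 0 (50.7% of all genes). The median was 0.54, against 0.01 for all genes. The HGV libraries lay wholly above the LGV libraries for 31 genes (27.7% of all genes) and wholly below for 1 (23.7%). Both comparisons called 20 genes higher, and 11 rose only with VPA present by these calls (NEK2, FOXM1, BUB1, CENPM, BIRC5, CDC20, ESPL1, ANLN, MKI67, NCAPG and NCAPH), which is not a test of a difference between the comparisons. TTK and SMC2 were called only without VPA. Without LGV replicate 2, 7 of the 32 calls were lost (CCNB2, CDC25B, NEK2, FOXM1, BUB1, MKI67 and NCAPG) and 25 held, the same 25 that held under all 15 alternatives. Across the 50 genes, which are not independent replicates, the 2 sets of log2 fold changes had a Pearson r of 0.88 and a Spearman rho of 0.83, with the same sign in 46, and r was 0.78 over 15271 genes.

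**Figure D1:**
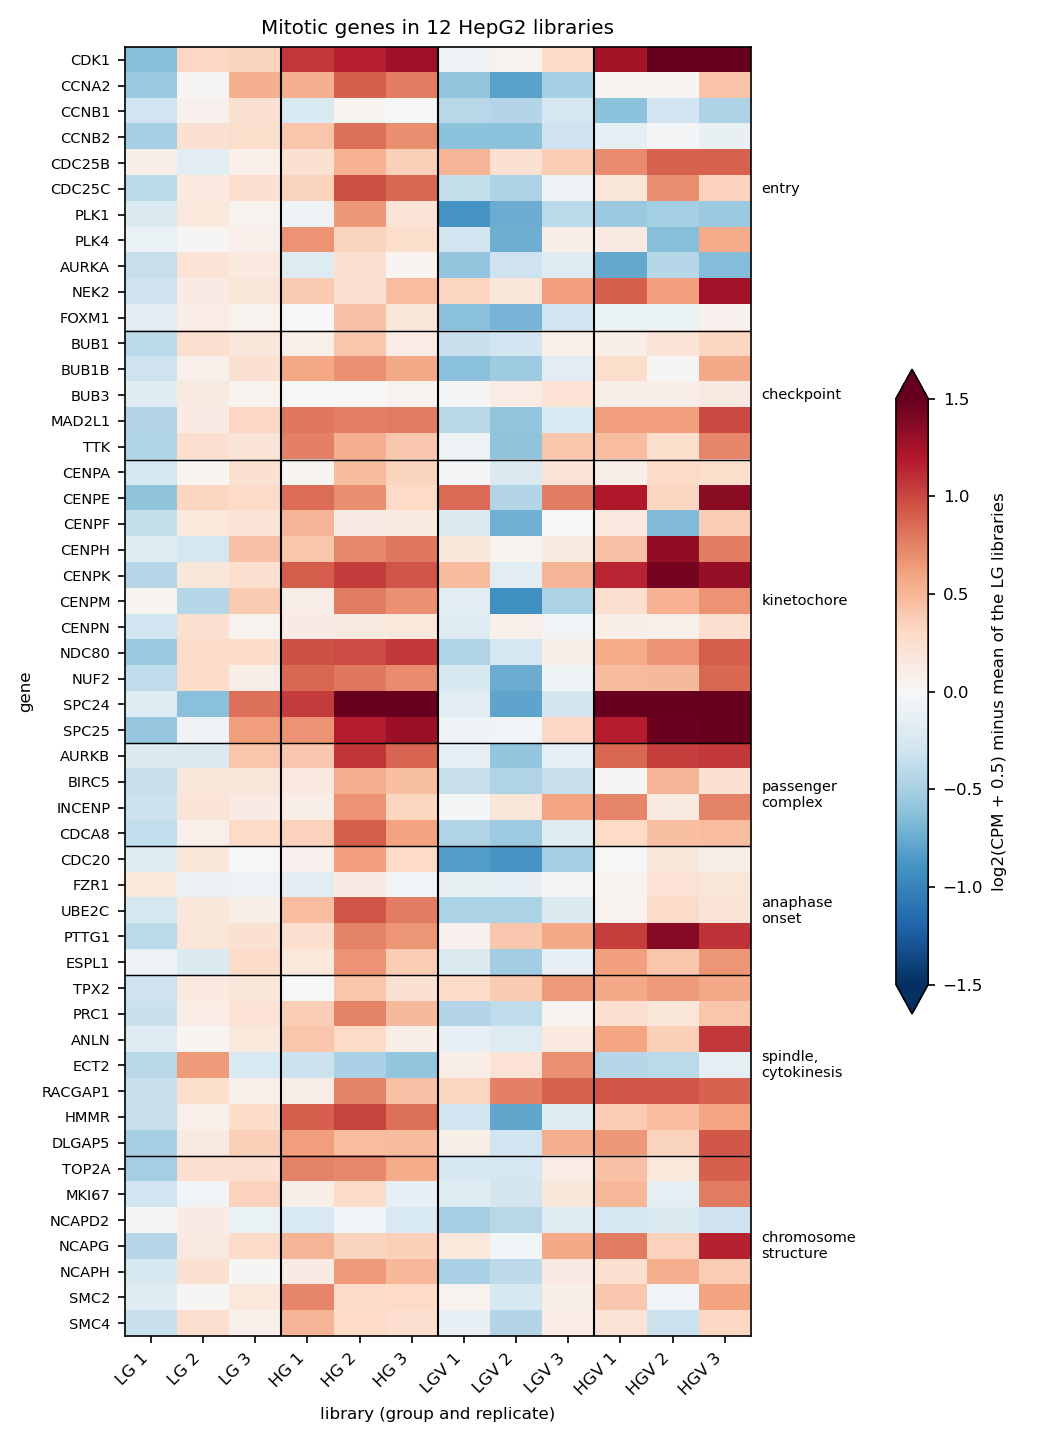
Level of each of the 50 genes (vertical axis, grouped by role) in each of the 12 libraries (horizontal axis), coloured by log2(CPM + 0.5) minus the mean of the 3 LG libraries, with colours ending at 1.5 in either direction. LG replicate 1 is pale to dark blue for most genes, the HG and HGV columns are red for most kinetochore and checkpoint genes, and PLK1, AURKA and CCNB1 are blue in the LGV and HGV columns.

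The second question was what VPA changed in each medium. Called members went both ways in each medium. In LGV against LG, 3 of 50 rose (CDC25B, TPX2 and RACGAP1) and 7 fell (CCNA2, CCNB1, CCNB2, PLK1, FOXM1, CDC20 and NCAPD2), which is below the share of all genes in either direction (21.7% higher, 19.9% lower). In HGV against HG, 5 rose (CDC25B, NEK2, PTTG1, TPX2 and RACGAP1) and 7 fell (CCNA2, CCNB1, CCNB2, PLK1, AURKA, UBE2C and HMMR), again below the shares of all genes (25.8% higher, 20.2% lower). Log2 fold changes were above 0 for 14 of 50 in LG (49.7% of all genes) and 22 of 50 in HG (51.9%). At an unadjusted p under 0.05 there were 3 higher and 13 lower in LG, where 4040 and 3802 of all 15944 genes tested were. In HG there were 10 higher and 9 lower, where 4750 and 3838 of all 16188 were. Medians were -0.21 and -0.05, against -0.01 and 0.02 for all genes. Without overlap between the groups, LGV lay above LG for 3 genes and below for 4 (25.7% and 24.8% of all genes), and HGV lay above HG for 7 and below for 8 (30.1% and 24.5%). CDC25B, TPX2 and RACGAP1 rose and CCNA2, CCNB1, CCNB2 and PLK1 fell in both media. The 2 comparisons share no library, and their log2 fold changes over the 50 genes had an r of 0.75 and a rho of 0.73, with the same sign in 42. Over 15743 genes r was higher, at 0.91.

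The balance of these VPA calls moved with the scaling. With library size alone in place of TMM factors, the median of all genes shifted to 0.16 in LGV against LG and to 0.15 in HGV against HG, and the members called became 3 higher and 2 lower, and 11 higher and 6 lower, with medians of -0.05 and 0.07. All genes were then called higher and lower in 28.2% and 12.3% in LG, and in 32% and 15% in HG. With upper quartile factors the splits were 3 and 4, and 10 and 7, for which the shares of all genes are not given. In LGV against LG 6 members were called without LGV replicate 1 and 14 without LG replicate 1, and 3 were called under all 15 alternatives, PLK1 and CDC20 as lower and RACGAP1 as higher. In HGV against HG, 8 were (CCNA2, CCNB2, PLK1, AURKA, UBE2C and HMMR lower, CDC25B and PTTG1 higher).

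**Figure D2:**
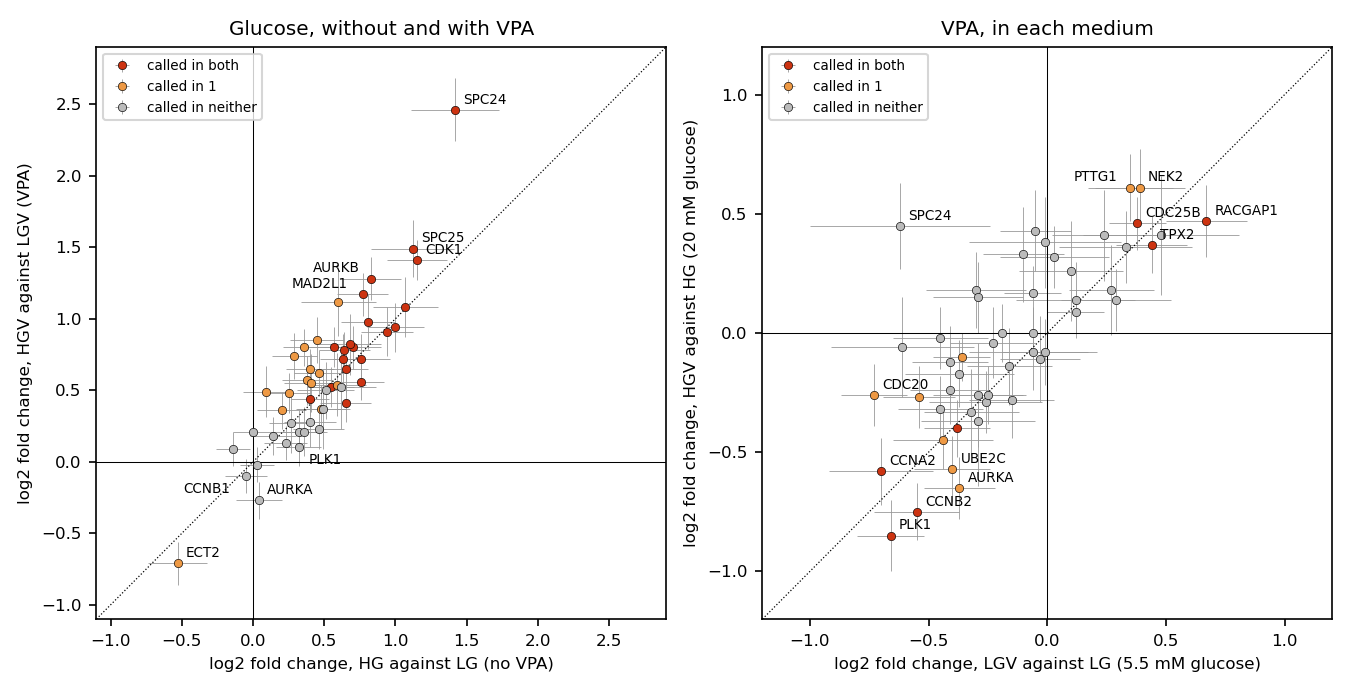
Log2 fold changes of the 50 genes with standard errors, for high against low glucose without VPA (horizontal) and with it (vertical) on the left, and for VPA in 5.5 mM (horizontal) and 20 mM glucose (vertical) on the right. On the left 46 genes have the same sign in both and SPC24 stands apart at 1.42 and 2.46, and on the right the genes spread to both sides of 0, from PLK1 at -0.66 and -0.85 to RACGAP1 at 0.67 and 0.47.

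Whether the response to VPA depended on the medium was tested as an interaction over the 12 libraries. By edgeR's quasi-likelihood test 0 of 50 members were called, where 0.0427% of all genes were (0.0244% higher and 0.0183% lower), and DESeq2 called 0. At an unadjusted p under 0.05 there were 2 of the 50, SPC24 and CDC20, where 1852 of all 16389 genes tested were. The interaction of SPC24 was 1.08 ± 0.44 (SE) on the log2 scale (FDR 0.344), that of CDC20 0.48 ± 0.20 (FDR 0.368) and that of ANLN 0.49 ± 0.24 (FDR 0.441). The 95% interval of SPC24 ran from 0.16 to 2.00, and without LG replicate 3 its value was 0.41.

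Among the kinases, cyclins and regulators of mitotic entry (11 genes), 5 rose in HG (12% of all genes) and 7 rose in HGV against LGV (21.2%). With VPA 5 fell and 1 rose in LG (19.9% and 21.7% of all genes), and 5 fell and 2 rose in HG (20.2% and 25.8%). CDK1, the kinase that starts mitosis, was at 6.99, 14 and 14.2 CPM in LG, 23.8, 25.8 and 27.7 in HG, 10.6, 11.6 and 13.6 in LGV, and 27.3, 33.2 and 36 in HGV. Every library in 20 mM glucose lay above every one in 5.5 mM, and LG and LGV overlapped. The log2 fold change was 1.15 ± 0.21 (SE, n = 3 per group; edgeR FDR 0.000657) for HG and 1.41 ± 0.14 (FDR 1.34e-06) for HGV against LGV, and with VPA it was 0.03 ± 0.23 (FDR 0.935) in LG and 0.32 ± 0.13 (FDR 0.0592) in HG.

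The cyclin genes fell with VPA in both media. CCNA2, cyclin A2, was at 15.4, 23.2 and 33.3 CPM in LG, 33.3, 43 and 39.4 in HG, 15.1, 12.9 and 16.1 in LGV, and 23.5, 23.3 and 30.8 in HGV. It rose with glucose by 0.70 ± 0.20 (FDR 0.0173, not called without LG replicate 1) and 0.80 ± 0.15 (FDR 0.000345), and with VPA it fell by 0.70 ± 0.22 in LG (FDR 0.0194) and by 0.58 ± 0.14 in HG (FDR 0.00503). In LG the fall was not called without LG replicate 3, without LGV replicate 2 or with library size alone (highest FDR 0.117). CCNB2, cyclin B2, was at 22.9, 38.1 and 39.2 CPM in LG, 43.4, 58.2 and 53.1 in HG, 21.1, 21 and 26 in LGV, and 29.6, 32.1 and 30 in HGV. All HG libraries were above all others, and its fold change was 0.65 ± 0.18 (FDR 0.0139, not called without LG replicate 1) in HG against LG, 0.41 ± 0.13 (FDR 0.0159) in HGV against LGV and -0.75 ± 0.12 (FDR 0.000299) in HGV against HG. In LGV against LG it fell by 0.55 ± 0.18 (FDR 0.0262), a call lost with upper quartile factors or library size alone and without LG replicate 2 or 3 or LGV replicate 1 or 2 (highest FDR 0.147). CCNB1, cyclin B1, the partner of CDK1, passed in neither comparison of media (-0.05 ± 0.15 and -0.10 ± 0.12) and was lower with VPA at 39.9 to 45.8 CPM in LGV against 44.3 to 63.9 in LG (FDR 0.044), and at 35.5 to 44.4 in HGV against 46.5 to 56 in HG (FDR 0.0167). Its call in LG was lost with upper quartile factors, library size alone or the 1 CPM filter and without any 1 library but LG replicate 1 (highest FDR 0.284), and its call in HG with library size alone and without HG replicate 2 or 3 or HGV replicate 1 (highest FDR 0.0788).

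PLK1, a kinase that acts at centrosomes and kinetochores, was lower with VPA in every library. It was at 94.5, 123 and 114 CPM in LG, 106, 172 and 127 in HG, 59.4, 65.4 and 83 in LGV, and 74.6, 76.7 and 74.5 in HGV. The groups with and without VPA did not overlap in either medium, and PLK1 fell by 0.66 ± 0.14 (FDR 0.00192) in LG and by 0.85 ± 0.15 (FDR 0.000559) in HG. Between media its differences were 0.32 ± 0.16 (FDR 0.153) and 0.10 ± 0.13 (FDR 0.56). AURKA, the centrosomal aurora kinase, fell in HG by 0.65 ± 0.13 (FDR 0.00156), from 60.5, 82.5 and 70.6 CPM to 40.5, 51.4 and 44.1, with no overlap. In LG its change was -0.37 ± 0.15 (FDR 0.066), with 54.4, 80.3 and 76.6 CPM in LG and 45.9, 55.7 and 60.7 in LGV, which overlapped.

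FOXM1, the transcription factor of late cell cycle genes, was lower with VPA in LG, where 24.4, 29.5 and 28.2 CPM in LG faced 17.5, 16.6 and 22 in LGV. Its fall of 0.54 ± 0.15 (FDR 0.00832) was not called with library size alone, and in HG the change was -0.27 ± 0.13 (FDR 0.107). CDC25B and NEK2 went the other way. CDC25B, a phosphatase that activates CDK1, was at 41.1 to 49.4 CPM in LG, 54.3 to 66.5 in HG, 54.3 to 65.8 in LGV and 75.9 to 86.1 in HGV. It was the one member called higher in all 4 comparisons, with VPA by 0.38 ± 0.12 (FDR 0.0222) and 0.46 ± 0.11 (FDR 0.00445), although in LG not without LG replicate 2 or LGV replicate 1 or 3 (highest FDR 0.0772). Its rise in HG against LG (FDR 0.0369) was lost without LG replicate 1 or 2 or HG replicate 2 or 3 (highest FDR 0.199). NEK2, a kinase of centrosome separation, rose in HGV against HG by 0.61 ± 0.16 (FDR 0.00938), from 12.6, 11.2 and 13.2 CPM to 18.1, 14.8 and 23.4, and without HGV replicate 3 its FDR was 0.0503. CDC25C rose with glucose by 0.76 (not called without LG replicate 1) and 0.72, and PLK4, the kinase of centriole duplication, passed in 0 of the 4 comparisons.

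**Figure D3:**
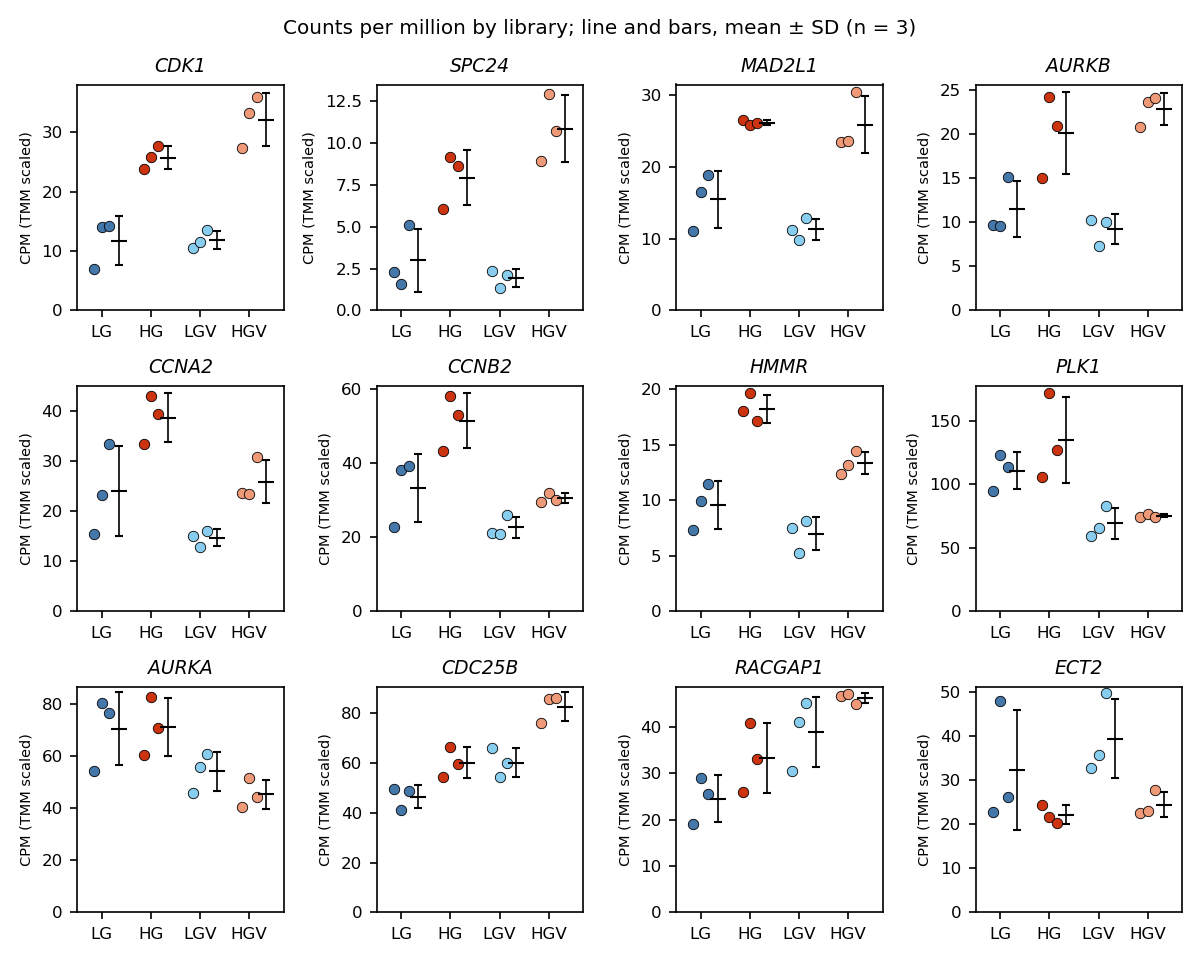
CPM (vertical axis) of 12 genes in the LG, HG, LGV and HGV libraries (horizontal axis), 1 point per library, with lines and bars for the mean and SD of 3. CDK1, SPC24 and MAD2L1 are higher in both 20 mM groups than in both 5.5 mM groups, PLK1 is lower in both VPA groups, at 59.4 to 83 CPM against 94.5 to 172, and ECT2 is lower in HGV than in LGV.

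Of the 5 genes of the spindle assembly checkpoint, 3 rose in each comparison of media, where 12% (without VPA) and 21.2% (with VPA) of all genes did. MAD2L1, the checkpoint protein MAD2, was at 11, 16.5 and 18.8 CPM in LG, 26.5, 25.8 and 26.1 in HG, 11.2, 9.84 and 12.8 in LGV, and 23.5, 23.6 and 30.4 in HGV, so that no library in 20 mM glucose fell into the range of those in 5.5 mM. It rose by 0.77 ± 0.18 (FDR 0.00401) and 1.17 ± 0.15 (FDR 1.35e-05). BUB1B, the checkpoint kinase BUBR1, rose by 0.63 (not called without LG replicate 1) and 0.72, the kinase TTK by 0.59 in HG against LG, and the kinase BUB1 by 0.36 in HGV against LGV. The call of TTK was lost without LG replicate 1 or any HG library (highest FDR 0.181), and that of BUB1 without LGV replicate 1 or 2 or HGV replicate 3 (highest FDR 0.15). BUB3, a binding partner of BUB1 and BUBR1, lay between 99.6 and 132 CPM in all 12 libraries, with log2 fold changes of 0.03 ± 0.12 and -0.02 ± 0.12. With VPA 0 of 5 were called in either medium, where 41.6% of all genes were called in LG and 46.1% in HG. At an unadjusted p under 0.05 there were 2 in LG and 1 in HG, and DESeq2 called 1 lower in each. The extremes with VPA were BUB3, at 0.12 and 0.09, and BUB1B, at -0.45 ± 0.18 (FDR 0.0636) and -0.32 ± 0.14 (FDR 0.0854).

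The kinetochore genes (11) had the largest medians of the 7 roles in both comparisons of media, at 0.68 and 0.94. Called higher were 6 in HG against LG (12% of all genes) and 7 in HGV against LGV (21.2%). All 4 genes of the NDC80 complex, which binds the microtubule end, rose in both, although SPC25 was not called in HG against LG without LG replicate 1. SPC24 was at 2.28, 1.55 and 5.13 CPM in LG, 6.05, 9.15 and 8.6 in HG, 2.34, 1.33 and 2.13 in LGV, and 8.92, 12.9 and 10.7 in HGV. LG replicate 3 was higher than the other LG libraries but below every library in 20 mM glucose. The log2 fold change was 1.42 ± 0.31 (FDR 0.00297) in HG against LG and 2.46 ± 0.22 (5.52-fold, FDR 3.45e-07) in HGV against LGV, the largest of the 50 in both, and leaving out single libraries moved the first between 1.11 and 2.10. Its partner SPC25 was at 1.42 to 3.91 CPM in LG, 4.06 to 6.44 in HG, 2.22 to 3.04 in LGV and 5.95 to 8.15 in HGV, and rose by 1.12 ± 0.29 (FDR 0.00831) and 1.49 ± 0.20 (FDR 2.79e-05). NDC80 itself was at 5.68, 10.5 and 10.5 CPM in LG, 17.1, 17.4 and 18.5 in HG, 6.12, 7.05 and 9.13 in LGV, and 12.9, 14 and 16.6 in HGV. It rose by 1.00 ± 0.20 (FDR 0.00154) and 0.94 ± 0.17 (FDR 0.000322), and NUF2 rose by 0.81 and 0.98.

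Of the constitutive centromere network, CENPK was at 1.68, 2.79 and 2.99 CPM in LG against 4.98, 5.53 and 5.12 in HG, without overlap, and at 2.11 to 3.68 in LGV against 5.95 to 7.42 in HGV. It rose by 1.07 ± 0.23 (FDR 0.0027) and 1.08 ± 0.21 (FDR 0.0007). CENPH rose by 0.68 and 0.82, the first lost without LG replicate 1 or 2 or HG replicate 2 or 3 (highest FDR 0.124), and CENPM by 1.12 in HGV against LGV. CENPA, the centromeric histone, and CENPF and CENPN passed in neither comparison, with log2 fold changes between 0.14 and 0.32. CENPE, a motor of the kinetochore, varied widely among replicates, at 10, 3.8 and 9.45 CPM in LGV and 12.9, 6.78 and 14.4 in HGV, and also passed in neither (0.62 ± 0.24 and 0.52 ± 0.29). With VPA 0 of the 11 were called in either medium by edgeR or DESeq2, and 0 in LG and 3 in HG had an unadjusted p under 0.05. By edgeR 41.6% of all genes were called in LG and 46.1% in HG. In LG the changes ran from SPC24 at -0.62 ± 0.38 (FDR 0.211) to CENPE at 0.48 ± 0.33 (FDR 0.265), and in HG from NDC80 at -0.29 ± 0.13 (FDR 0.088) to SPC24 at 0.45 ± 0.18 (FDR 0.062). Without LG replicate 3 the value of SPC24 in LG was 0.07.

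Of the chromosomal passenger complex, which corrects faulty attachments, AURKB is the kinase. It was at 9.72, 9.61 and 15.2 CPM in LG, 15.1, 24.3 and 21 in HG, 10.3, 7.34 and 10.1 in LGV, and 20.8, 23.7 and 24.1 in HGV. LG and HG touched at the edge, and LGV and HGV were far apart. The log2 fold change was 0.83 ± 0.21 (FDR 0.00695, not called without LG replicate 1) and 1.28 ± 0.15 (FDR 7.47e-06). CDCA8, borealin, rose by 0.64 (not called without LG replicate 1 or HG replicate 2) and 0.78, and BIRC5, survivin, rose by 0.65 in HGV against LGV and gave 0.40 ± 0.17 (FDR 0.0978) in HG against LG. INCENP, the scaffold, passed in neither. With VPA 0 of these 4 were called in either medium by edgeR, where 41.6% of all genes were called in LG and 46.1% in HG. At an unadjusted p under 0.05 there were 2 in LG and 0 in HG, and DESeq2 called 1 lower in LG and 0 in HG. INCENP and CDCA8 were the extremes in LG, at 0.27 ± 0.18 and -0.41 ± 0.17, and AURKB and CDCA8 in HG, at 0.18 ± 0.16 and -0.24 ± 0.14.

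The genes of anaphase onset (5) showed both directions with VPA. In LG 1 fell (19.9% of all genes), and in HG 1 rose and 1 fell (25.8% and 20.2%). CDC20, which activates the anaphase-promoting complex, was at 50.9, 66.2 and 58.2 CPM in LG, 61, 89.3 and 71.5 in HG, 32.4, 31.2 and 41 in LGV, and 57.7, 65.5 and 61.8 in HGV. The LGV libraries lay below all the others, and CDC20 fell with VPA in LG by 0.73 ± 0.14 (FDR 0.00068), while in HG the change was -0.26 ± 0.13 (FDR 0.13). In HGV against LGV it rose by 0.80 ± 0.13 (FDR 0.000111), a comparison that uses the same LGV libraries. UBE2C, the ubiquitin-conjugating enzyme of the complex, was at 17.2, 23.3 and 22 CPM in LG, 28.7, 40.2 and 35.4 in HG, 14.7, 14.7 and 17.7 in LGV, and 21.4, 25.3 and 23.7 in HGV, with HG above all others. It rose by 0.76 ± 0.16 (FDR 0.00278) in HG against LG and 0.56 ± 0.13 (FDR 0.00292) in HGV against LGV, and fell by 0.57 ± 0.14 (FDR 0.00432) with VPA in HG. A pseudogene of UBE2C, UBE2CP5, has a row of its own in the table.

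PTTG1, securin, the inhibitor of separase, rose with glucose, and with VPA in HG. Its CPM were 16.6, 25.2 and 26 in LG, 26.6, 37.5 and 35.3 in HG, 23.2, 29.6 and 33.2 in LGV, and 46, 57.9 and 47.4 in HGV, where every library was above all those of the other groups. It rose by 0.57 ± 0.18 (FDR 0.0272, and up to 0.131 without LG replicate 1 or HG replicate 2 or 3) and 0.80 ± 0.14 (FDR 0.000282) with glucose and by 0.61 ± 0.14 (FDR 0.00401) with VPA in HG, and in LG with VPA the value was 0.35 ± 0.18 (FDR 0.139). ESPL1, separase itself, rose by 0.85 ± 0.16 in HGV against LGV (FDR 0.000339). FZR1, the activator of the complex after mitosis, lay between 41.4 and 53.9 CPM in all libraries and passed in 0 of the 4 comparisons.

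The spindle and cytokinesis genes (7) held 2 of the 3 members that rose with VPA in both media, and the 1 that fell with glucose. With VPA 2 of the 7 rose in LG (21.7% of all genes), and 2 rose and 1 fell in HG (25.8% and 20.2%). RACGAP1, a subunit of centralspindlin, was at 19.1, 29 and 25.4 CPM in LG, 25.9, 40.8 and 33 in HG, 30.4, 41 and 45 in LGV, and 46.5, 47 and 44.9 in HGV, and the VPA libraries were above the untreated ones in each medium. It rose by 0.67 ± 0.17 (FDR 0.00594) in LG and by 0.47 ± 0.15 (FDR 0.0187) in HG. TPX2, which activates AURKA on the spindle, was at 74.9, 103 and 105 CPM in LG, 92.5, 125 and 109 in HG, 113, 123 and 145 in LGV, and 138, 145 and 139 in HGV, and rose by 0.44 ± 0.15 (FDR 0.025) and 0.37 ± 0.12 (FDR 0.0189). The call of TPX2 was lost in LG without LG replicate 1 or LGV replicate 3 (highest FDR 0.124) and in HG without HG replicate 1 or 3 (highest FDR 0.101), and that of RACGAP1 in HG without HG replicate 1 or 3 or HGV replicate 1 (highest FDR 0.0787). HMMR, a microtubule-binding protein, fell with VPA in HG by 0.45 ± 0.12 (FDR 0.00906), from 18, 19.6 and 17.1 CPM to 12.4, 13.2 and 14.4, and with 7.29, 9.93 and 11.5 CPM in LG and 7.53, 5.29 and 8.17 in LGV gave -0.44 ± 0.21 (FDR 0.112). It rose with glucose by 0.94 ± 0.18 (FDR 0.000961) and 0.91 ± 0.17 (FDR 0.000471).

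ECT2, the exchange factor that RACGAP1 recruits to start the cleavage furrow, fell in HGV against LGV by 0.71 ± 0.15 (FDR 0.00122). It was at 22.8, 47.9 and 26.1 CPM in LG, 24.4, 21.7 and 20.2 in HG, 32.8, 35.7 and 49.6 in LGV, and 22.6, 22.9 and 27.7 in HGV. LG replicate 2 lay far above the other LG libraries, and HG against LG gave -0.53 ± 0.21 (FDR 0.0694). PRC1, which bundles the microtubules of the midzone, rose by 0.55 (not called without LG replicate 1 or HG replicate 2) and 0.52 with glucose, ANLN, anillin, by 0.74 in HGV against LGV, and DLGAP5 passed in 0 of the 4 comparisons.

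Of 7 genes of chromosome structure, 2 rose in HG against LG (12% of all genes) and 4 in HGV against LGV (21.2%). TOP2A, topoisomerase II alpha, was at 74.4, 126 and 126 CPM in LG, 177, 174 and 156 in HG, 89.3, 87.7 and 114 in LGV, and 144, 118 and 198 in HGV. The HG libraries did not overlap with LG nor HGV with LGV, and it rose by 0.65 ± 0.16 (FDR 0.00748) and 0.65 ± 0.16 (FDR 0.00402). The condensin subunits differed from each other: SMC2 rose by 0.48 in HG against LG, NCAPG and NCAPH by 0.55 and 0.62 in HGV against LGV, and SMC4 and NCAPD2 passed in neither. SMC2 was lost without LG replicate 1 or 2 or any HG library (highest FDR 0.189), and NCAPG without LGV replicate 1 or 2 or HGV replicate 1 or 3 (highest FDR 0.237). NCAPD2, at 149 to 173 CPM in LG and 112 to 139 in LGV, fell with VPA in LG by 0.36 ± 0.12 (FDR 0.0266), and in HG its change was -0.10 ± 0.10. The fall was lost with upper quartile factors or library size alone and without LG replicate 1 or 2 or LGV replicate 1 or 2 (highest FDR 0.142). The extremes in HG were NCAPG at 0.41 ± 0.19 (FDR 0.0931) and SMC4 at -0.28 ± 0.16, and in LG the highest was NCAPG at 0.24 ± 0.22. With VPA in HG, 0 of these 7 were called (46.1% of all genes), 1 had an unadjusted p under 0.05 and DESeq2 called 0. MKI67, the Ki-67 antigen used to mark dividing cells, was at 40.6, 48.7 and 63.8 CPM in LG and 53.3, 61.4 and 46.2 in HG (0.09 ± 0.16, FDR 0.71), and at 44.2, 41.4 and 56.7 in LGV and 71, 45.1 and 86.4 in HGV (0.49 ± 0.18, FDR 0.0381), where the groups overlapped at HGV replicate 2 and the call was lost without LGV replicate 1 or 2 or HGV replicate 1 or 3 (highest FDR 0.235).

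Other genes of the same machinery were counted from lists. Of all genes, 12% were called higher and 12.7% lower in HG against LG, and 21.2% and 19.5% in HGV against LGV. With VPA the shares were 21.7% higher and 19.9% lower in LG, and 25.8% and 20.2% in HG. Of 12 mitotic kinesins, the motors of the spindle, 8 rose in HG against LG and 11 in HGV against LGV, with medians of 0.53 and 0.70. KIF11, which pushes the spindle poles apart, was at 6.96, 12.2 and 13.7 CPM in LG and 18.6, 17.9 and 17.6 in HG. With VPA 1 kinesin, KIF20A, fell in LG (-0.50 ± 0.17, FDR 0.0282) and 0 were called in HG, where 1 had an unadjusted p under 0.05 and DESeq2 called 1. Of 33 further kinetochore and checkpoint genes, 9 rose and 1 fell in HG against LG and 16 rose in HGV against LGV. Of 21 further spindle and cytokinesis genes, 8 rose in HG against LG and 13 in HGV against LGV. LG replicate 1, which stood low for the members, was also the lowest LG library for every kinesin listed. The counts of these and the following lists in HG against LG are given only with that library included.

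With VPA, PMF1, a subunit of the MIS12 kinetochore complex, was at 13.9 to 16.6 CPM in LG and 2.08 to 2.52 in LGV, and at 12.3 to 15.6 in HG and 2.61 to 3.12 in HGV. It fell by 2.70 ± 0.18 (FDR 6.91e-08) and 2.28 ± 0.16 (FDR 2.5e-07). Of its exon bases 23.3% are shared with the readthrough gene PMF1-BGLAP. The other further kinetochore genes called with VPA were 1 higher and 3 lower in LG, TRIP13 among the lower (-0.75 ± 0.19), and 7 higher and 3 lower in HG, ZWILCH among the higher (0.69 ± 0.17). Of the further spindle genes, 3 of 20 fell in LG, with GTSE1 at -0.57 and TACC3 at -0.47, and in HG 2 of 21 rose and 2 fell, with CEP55 at 0.57 and NUMA1 at -0.42. The VPA counts of both lists were below the shares of all genes, which were 21.7% higher and 19.9% lower in LG, and 25.8% and 20.2% in HG.

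The subunits and regulators of the anaphase-promoting complex (16 genes) gave 6 lower and 0 higher with VPA in LG (19.9% of all genes lower, 21.7% higher), where 1 was higher at an unadjusted p under 0.05 and by DESeq2, and 4 lower and 2 higher in HG (20.2% and 25.8%). ANAPC16, a small subunit, fell in both media, by 0.91 ± 0.12 (FDR 2.02e-05) and 0.72 ± 0.12 (FDR 0.000384), the inhibitor FBXO5 fell by 0.79 in LG, and UBE2S, which extends the ubiquitin chains, rose by 0.86 in HG. Between media 2 rose in HG against LG and 4 rose and 1 fell in HGV against LGV. Cohesin and condensin II (15 genes) gave 3 lower in LG with VPA and 2 higher and 3 lower in HG, with the cohesin subunit STAG1 at -0.81 and -1.25, SMC1A at -0.77 in LG and the acetyltransferase ESCO2 at 1.05 in HG. With glucose 1 rose in HG against LG, and 4 rose and 4 fell in HGV against LGV. Of 15 further entry and exit regulators, VPA gave 1 higher and 3 lower in LG and 4 higher and 2 lower in HG, with the kinase NEK6 at -0.63 and -0.82, the phosphatase CDC25A at -0.47 in LG and the CDK1-inhibiting kinase PKMYT1 at 0.52 in HG, and glucose gave 3 higher and 1 lower without VPA and 6 higher and 2 lower with it. Most VPA counts of these lists lay near or below the shares of all genes. With glucose those shares were 12% higher and 12.7% lower without VPA, and 21.2% and 19.5% with it. On GRCh37, 21.2% of the exon bases of STAG1 lie in PCCB and 24.7% of those of PKMYT1 in PAQR4, both on the other strand. Of those of UBE2S, 24.1% lie in another gene on the same strand.

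Among 16 regulators of these genes, MYBL2, the gene of B-MYB, was at 17.5, 16 and 29.1 CPM in LG, 29.2, 49 and 39.2 in HG, 19.2, 15.3 and 19.4 in LGV, and 45.3, 62.3 and 62.1 in HGV. It rose by 0.93 ± 0.21 (FDR 0.00397) and 1.64 ± 0.15 (FDR 3.45e-07) with glucose. NFYC, a subunit of the CCAAT-binding factor NF-Y, was at 63.8 to 67.7 CPM in the untreated groups and 28.2 to 34.6 with VPA, and fell by 1.16 ± 0.11 (FDR 1.8e-06) in LG and 0.99 ± 0.10 (FDR 6.28e-06) in HG. MYBL1 rose with VPA by 1.43 and 1.17. In all, VPA gave 1 higher and 3 lower of the 16 in LG and 3 higher and 4 lower in HG, and glucose 2 higher with 1 lower and 2 higher with 2 lower. All genes were called higher and lower in 21.7% and 19.9%, 25.8% and 20.2%, 12% and 12.7%, and 21.2% and 19.5%, in the same order. The counts of the list were near or below those shares.

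**Figure D4:**
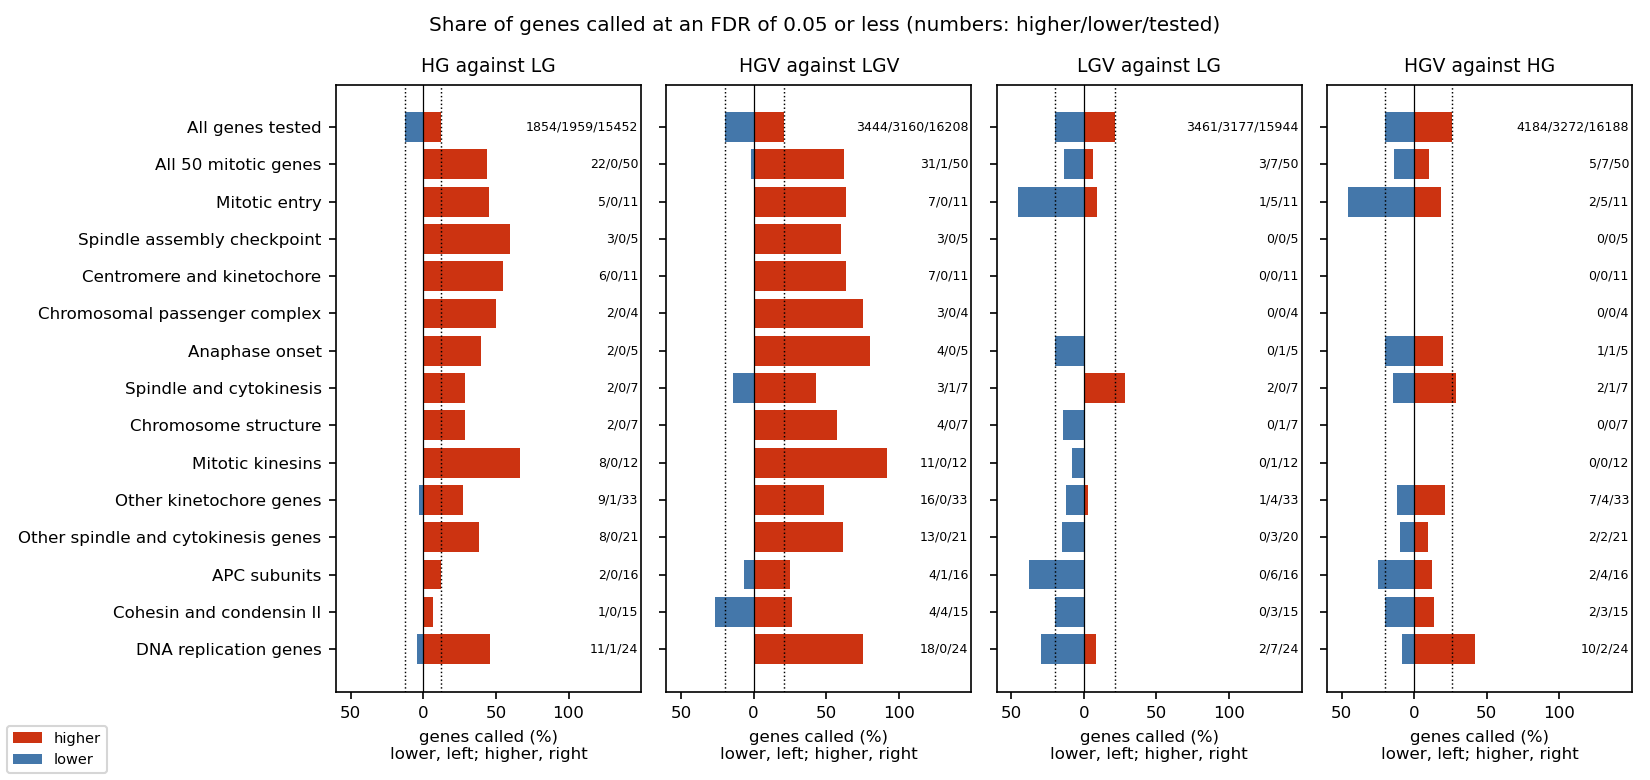
Share of genes called higher (red, right of 0) and lower (blue, left of 0) in each list (vertical axis) for the 4 comparisons, with the counts higher, lower and tested at the right and dotted lines at the shares of all genes tested. In both comparisons of media the red bars of the 7 roles and of the kinesins pass the dotted line, as does that of DNA replication (11 and 18 of 24), while cohesin and condensin II stays short of it in HG against LG (1 of 15).

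For comparison, 24 genes of DNA replication gave 11 higher and 1 lower in HG against LG and 18 higher and 0 lower in HGV against LGV (0 lower at an unadjusted p under 0.05 and by DESeq2). Of all genes, 12% were higher and 12.7% lower in HG against LG, and 21.2% and 19.5% in HGV against LGV. With VPA 2 rose and 7 fell in LG (21.7% and 19.9% of all genes) and 10 rose and 2 fell in HG (25.8% and 20.2%), with TYMS at -1.09 and -1.47, MCM5 at -0.77 in LG and CDC6 at 1.23 in HG. These calls are not a test of a difference between media. The interaction was called for 0 of the 24 by edgeR and 1 by DESeq2, with 10 at an unadjusted p under 0.05 (1852 of all 16389 genes tested). On GRCh37, 39.9% of the exon bases of TYMS lie in ENOSF1 on the other strand. Of 7 inhibitors of cyclin-dependent kinases, VPA gave 4 higher and 0 lower in each medium, with 0 lower at an unadjusted p under 0.05 in LG and 1 in HG, where DESeq2 called 1 lower. CDKN2D, p19, was at 3.65 to 5.57 CPM in LG, 3.01 to 3.33 in HG, 15.5 to 21.9 in LGV and 15.5 to 16.3 in HGV, and rose by 1.99 ± 0.20 and 2.3 ± 0.14, while CDKN2B rose by 1.17 in LG and CDKN3 by 0.95 in HG. In HG against LG 0 of the 7 were called, 2 were lower at an unadjusted p under 0.05 and DESeq2 called 1, and in HGV against LGV 1 rose and 3 fell, CDKN2B at -0.77 and CDKN1A, p21, at -0.67 among them.

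Markers of the hepatocyte lineage moved beside these results. Of 10, 6 fell and 0 rose with VPA in LG (19.9% and 21.7% of all genes), where 0 were higher at an unadjusted p under 0.05 or by DESeq2, and their summed level was 40064 to 41042 CPM in LGV against 52112 to 58808 in LG. In HGV against LGV 4 rose and 0 fell (21.2% and 19.5% of all genes), with 47076 to 61696 CPM in HGV, and in HG against LG 2 rose and 0 fell (12% and 12.7%), with 53107 to 60906 CPM in HG. None of the 10 fell at an unadjusted p under 0.05 or by DESeq2 in either comparison of media. In HGV against HG 1 rose and 2 fell (25.8% and 20.2% of all genes). LYZ, the one abundant leukocyte marker, was at 1070, 1210 and 1420 CPM in LG, 1240, 1360 and 1390 in HG, 908, 925 and 1060 in LGV, and 1550, 1490 and 1430 in HGV, with HGV above LGV and HG without overlap. The summed fibroblast markers (2 of 5) were at 37.9 to 58.3 CPM in LG, 18.8 to 29.3 in HG, 32.1 to 40.5 in LGV and 26.3 to 32.9 in HGV, and the endothelial ones (2 of 4) stayed at or below 4.85. The fibroblast sum was nearly all PDGFRB, with means of 49.2, 23.7, 35.3 and 28.4 CPM in LG, HG, LGV and HGV. It hides COL1A1, which had means of 0.226, 0.339, 1.09 and 1.97 in the same order. The part of these markers in the results for mitotic genes was not tested.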

How the data were processed

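Poly(A)-selected RNA of 12 HepG2 libraries, 3 per group, was prepared with a directional kit and sequenced from one end. The authors aligned the reads with STAR to GRCh37, counted them per Ensembl gene with featureCounts, left out genes averaging under 10 reads and deposited raw counts without normalization, a unit that keeps the depth of each library. The strand setting of featureCounts is not given in the sources used here. Per the submitters' processing notes, reads were converted with bcl2fastq 2.17.1.14.

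The members and lists were chosen with earlier results of these data known. The test was the quasi-likelihood F test of edgeR 4.0.16 (R 4.3.3) with TMM factors, with Benjamini-Hochberg FDR over all genes that averaged 10 or more reads in the libraries compared (called at an FDR of 0.05 or less). Only the groups compared entered a fit, except for the interaction. The SE is the absolute log2 fold change divided by the square root of F. Named genes were, per role, the extremes of each VPA comparison, the 6 members with the smallest p in each comparison, members called against the majority, the 3 with the smallest interaction p, and from each other list the 2 called genes with the largest change with VPA. Members outside this rule that are named with values, and genes of other lists named for the comparisons of media, were chosen after their values were seen.

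Alternatives were DESeq2 1.42.0 size factors, upper quartile or library size in place of TMM, the Wald test of DESeq2, no filter or 1 CPM in at least 3 libraries, a block for the replicate number, a joint fit of the 12 libraries and leaving out each library. Offsets for GC content and length (splines with 5 degrees of freedom) were added after seeing the data. Exon overlaps came from GENCODE on GRCh37, a later annotation than that of the counts, with values for 97.47% of genes, and promoters from RefSeq GRCh38.p14. In simulated counts for HGV against HG, 155 of 195 genes with a 2-fold change were recovered (79.5%) and 4.32% of calls were false, and for the interaction 94 of 194 (48.5%). The changed genes were 195 of 16214 and 194 of 16241, while 46.1% and 0.0427% of all genes were called in the data. The recovery therefore does not give the power for the members. Plots used matplotlib 3.10.9 and pandas 2.3.3 in Python 3.11.15.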

Additional observations from a re-analysis of the deposited data

How the results depend on the processing

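Members called in LGV against LG numbered 10 as reported and 5 with library size alone, the scaling that shifts the median of all genes, and 6 to 14 when single libraries were left out (6 without LGV replicate 1, 14 without LG replicate 1). In HG against LG, 22 were called as reported and 10 to 29 without single libraries (10 without LG replicate 1, 29 without LG replicate 3). For HGV against HG the range was 9 to 17, for HGV against LGV 25 to 41, and for the interaction 0 throughout. With the replicate number as a block, HGV against HG gave 19 members (10 higher, 9 lower) in place of 12, LGV against LG 15, HG against LG 22, the comparison of HGV with LGV 35 and the interaction 0. Correlations of the deviations of libraries with the same number averaged -0.142 in HG against LG, 0.105 in HGV against LGV, 0.107 in HGV against HG and 0.0551 in LGV against LG. Those with different numbers averaged 0.0742, -0.0518, -0.0628 and -0.0285 in the same order. Single pairs of the same number ran from -0.264 to 0.00522, -0.00134 to 0.255, -0.225 to 0.314 and -0.23 to 0.39. Pairs of different numbers ran from -0.0815 to 0.236, -0.233 to 0.152, -0.488 to 0.421 and -0.477 to 0.485. These values do not settle whether the numbers mark pairs, and the main fits did not take them as such. The cause of the added calls was not tested. Offsets for GC content and length, chosen after seeing the data, gave 11 members in LGV against LG, 18 in HGV against HG, 25 in HG against LG and 36 in HGV against LGV. For the block, the offsets and most fits without single libraries, the share of all genes called is not set beside these counts. They therefore do not show a gain or loss particular to the members. Among the values of single genes named by the rule above under these alternatives (GC and length offsets aside), 696 kept their side of the threshold, 26 passed it and 21 lost it. Genes not called in either fit count as kept, and for HG against LG the genes were the 6 members with the smallest p. The tally is thus no measure of how stable all calls were. No called value changed direction. Of the calls as reported, 9 of 22 in HG against LG, 25 of 32 in HGV against LGV, 3 of 10 in LGV against LG and 8 of 12 in HGV against HG held under all 15 alternatives. The lowest count of a member was 38 reads, and low members such as SPC24, SPC25 and CENPM had SEs of 0.38, 0.32 and 0.30 in LGV against LG. For the interaction, 48.5% of simulated 2-fold changes were recovered with 3 libraries per group, in a simulation where the share of changed genes differed from the share called in the data.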
